A study of Rattus norvegicus with 6 samples.

Results

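Interferon-stimulated genes were examined in aortas from rats with reduced kidney mass, after engineered exosomes or saline. The set was chosen by name: 45 symbols of type I interferon and interferon gamma targets, together with immunoproteasome and peptide-loading genes. Of these, 44 were found among the 24005 symbols of the table, and Xaf1 was not analysed here. A mean of at least 1 FPKM (fragments or reads per kilobase of gene, scaled to the library's total) over the 6 libraries was reached by 39 members, which entered the test. The other 5, Oas2, Oasl, Rsad2, Gbp4 and Zbp1, lay below that minimum.

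All rats had undergone a stepwise subtotal nephrectomy and ate a diet with 1.2% phosphorus, used to hasten arterial calcification. The exosome rats received 10 mg/kg of ANCR/E7-EXO, exosomes (small vesicles released by cells) by tail-vein injection with 5 days between doses. The control group was given an equal volume of saline over 13 weeks. Each group had 3 libraries, named saline 1 to 3 and exosome 1 to 3. The labels give no strain, sex or age and do not say whether each library came from a separate rat, so each p-value reflects only the spread among these libraries, which may be technical. Neither rats without kidney disease nor rats given unmodified exosomes were analysed here. The library totals implied by the FPKM steps ranged from 28063355 to 44561082 reads or read pairs. Acta2, the smooth muscle actin that defines the vessel media, stood at 4584 to 9086 FPKM, so smooth muscle was present in every library.

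Interferons are secreted proteins that alert cells to viruses and to misplaced nucleic acid. Type I interferon binds the receptor chains IFNAR1 and IFNAR2 and, through the kinases JAK1 and TYK2, leads to a transcription factor complex with STAT2 and IRF9 that binds the interferon-stimulated response element (ISRE). Interferon gamma acts through IFNGR1 and IFNGR2 and the gamma-activated site (GAS), and it induces IRF1, the immunoproteasome and the peptide transporter. In the vessel wall, smooth muscle, endothelium, fibroblasts and macrophages can all respond.

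The promoters of the members are shown first because ISRE and GAS are the elements through which interferon acts on such genes. RefSeq promoters (build GRCr8) were matched for 34 of the 44 members. Ifit1, Ifit2, Isg15, Mx2, Oas2, Usp18, Ddx58, Dhx58, Rtp4 and Zbp1 were unmatched. In the 250 bases before the gene start, the ISRE letters, GAAA, any 2 bases and GAAA again, searched on both strands, were found in 19 of the 34 members (55.9%) and in 1140 of all 33469 promoters (3.41%). The GAS letters TTCNNNGAA, which read the same on both strands, were found in 8 of the 34 (23.5%) and in 2566 of all promoters (7.67%). Matches describe letters only and say nothing of binding in these samples. Both motifs lay in 5 members, namely Irgm, Igtp, Parp14, Oas1a and Bst2. In Irgm, Igtp and Parp14 the GAS match was followed by the ISRE match with 2 bases between them. Only 4 of the 33469 promoters (0.012%) held that arrangement, and the remaining one was Irgm2, a paralog of Irgm. The spacing was not planned and was taken from these members themselves, so that share describes the arrangement and tests nothing. The stretches of these 3 members are printed 5′ to 3′ with both matches in capitals.
Irgm: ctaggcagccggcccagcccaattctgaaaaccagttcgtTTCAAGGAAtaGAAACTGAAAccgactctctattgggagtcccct
Igtp: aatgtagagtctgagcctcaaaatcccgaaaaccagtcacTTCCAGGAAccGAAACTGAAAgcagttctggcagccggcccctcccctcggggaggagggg
Parp14: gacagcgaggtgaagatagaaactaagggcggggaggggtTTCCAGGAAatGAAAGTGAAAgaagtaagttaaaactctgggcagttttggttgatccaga
They lie upstream of the annotated starts at chr10:33742579-33742663 (minus strand), chr10:42874893-42874993 (plus strand) and chr11:78408007-78408107 (plus strand). Irgm and Igtp encode interferon-inducible GTPases and Parp14 encodes an ADP-ribosyltransferase, and all 3 stood lower with exosomes. A negative log2 difference was found in 33 of the 39 tested members and in 60.7% of all genes tested.

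Ifi27 and Ifit3 held ISRE matches and no GAS match, and had positive log2 differences of 0.16 and 0.14. Mx1, with neither match, had the largest negative one, -1.44. An ISRE match without a GAS match is shown for Irf7, Eif2ak2 and Ifih1, a transcription factor and 2 sensors of viral RNA that stood lower with exosomes.
Irf7: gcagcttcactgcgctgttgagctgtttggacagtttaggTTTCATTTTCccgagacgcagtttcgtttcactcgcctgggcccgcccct
Eif2ak2: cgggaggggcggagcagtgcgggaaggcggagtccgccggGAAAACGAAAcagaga
Ifih1: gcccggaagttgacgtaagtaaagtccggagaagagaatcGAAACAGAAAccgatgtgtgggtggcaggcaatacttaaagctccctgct
These stretches are chr1:205800043-205800132 (minus strand), chr6:21941098-21941153 (plus strand) and chr3:67683978-67684067 (minus strand), and the capitals mark the ISRE match, which in Irf7 lies on the opposite strand and so reads reversed and complemented. The next set comes from genes of antigen presentation, of which Tap1 holds an ISRE match on the opposite strand, Psmb10 a separate pair and Tapbp a pair that overlaps, and from Irf1, which holds a GAS match alone.
Tap1: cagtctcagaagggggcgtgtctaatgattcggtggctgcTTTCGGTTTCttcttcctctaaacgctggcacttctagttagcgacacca
Psmb10: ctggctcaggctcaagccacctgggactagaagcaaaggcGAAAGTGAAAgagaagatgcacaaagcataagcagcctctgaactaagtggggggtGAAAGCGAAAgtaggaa
Tapbp: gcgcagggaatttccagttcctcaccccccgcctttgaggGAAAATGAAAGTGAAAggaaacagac
Irf1: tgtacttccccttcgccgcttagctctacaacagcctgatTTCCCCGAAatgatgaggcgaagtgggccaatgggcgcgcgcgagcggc
Their positions are chr20:4668615-4668704 (minus strand), chr19:50743293-50743405 (minus strand), chr20:4967878-4967943 (minus strand) and chr10:38417753-38417841 (plus strand). An ISRE match was present in 7 of 11 matched members whose exosome libraries all lay below the saline libraries, and in 10 of the 20 other matched members that were tested. The motif map shows these positions for every member with a match.

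**Figure D1:**
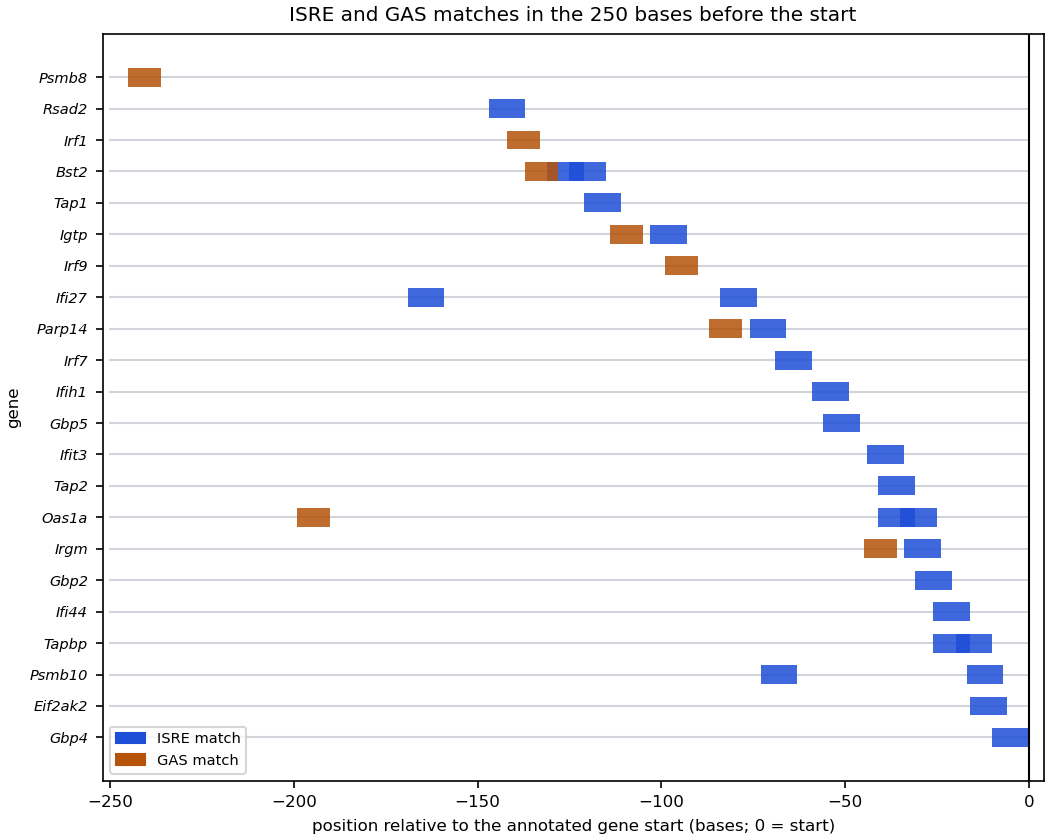
Positions of ISRE matches (blue) and GAS matches (brown) in the 250 bases before the annotated start of each member that has one; the horizontal axis is the distance from the start in bases and each row is a gene. In Irgm, Igtp and Parp14 a GAS match stands directly left of an ISRE match.

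The comparison of exosome with saline asked how the interferon-stimulated genes of the aorta differed with treatment in these rats. Most members stood lower with exosomes. The differences were large for Mx1, Mx2, Usp18, Isg15 and Oas1a, whose group means were 2.19 to 3.55 times as high with saline, and near 0 for Tapbp, Psmb8 and Irf1. No member passed limma at a Benjamini-Hochberg adjusted p under 0.05 over 11742 genes, where 0.00852% of all genes (1 gene) did. Of the 39 tested members, 33 (84.6%) had a negative log2 difference, against 60.7% of all genes. Their median was -0.32 on the log2(FPKM + 1) scale, against -0.07 for all genes, and 17.0% of all genes lay below the members' median. That scale understates the change of low genes.

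At an unadjusted p under 0.05 in limma, 13 members (33.3%) were lower and 0 were higher. Of all genes, 9.24% were lower and 6.75% higher by this rule. All 3 exosome libraries lay below all 3 saline libraries for 17 of the tested members (43.6%), where 11.7% of all genes did so. In the opposite direction there were 0 members, against 9.4% of all genes. The smallest adjusted p among the members was 0.255, for Irgm, Eif2ak2 and Ifit2. With library weights, which gave exosome 1 a weight of 2.81 and exosome 2 one of 0.386, limma passed 6 members, all lower: Irgm, Eif2ak2, Ifit2, Ddx58, Cmpk2 and Usp18. In that fit 618 genes, 5.26% of all, passed. The plot of differences shows the members by role.

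**Figure D2:**
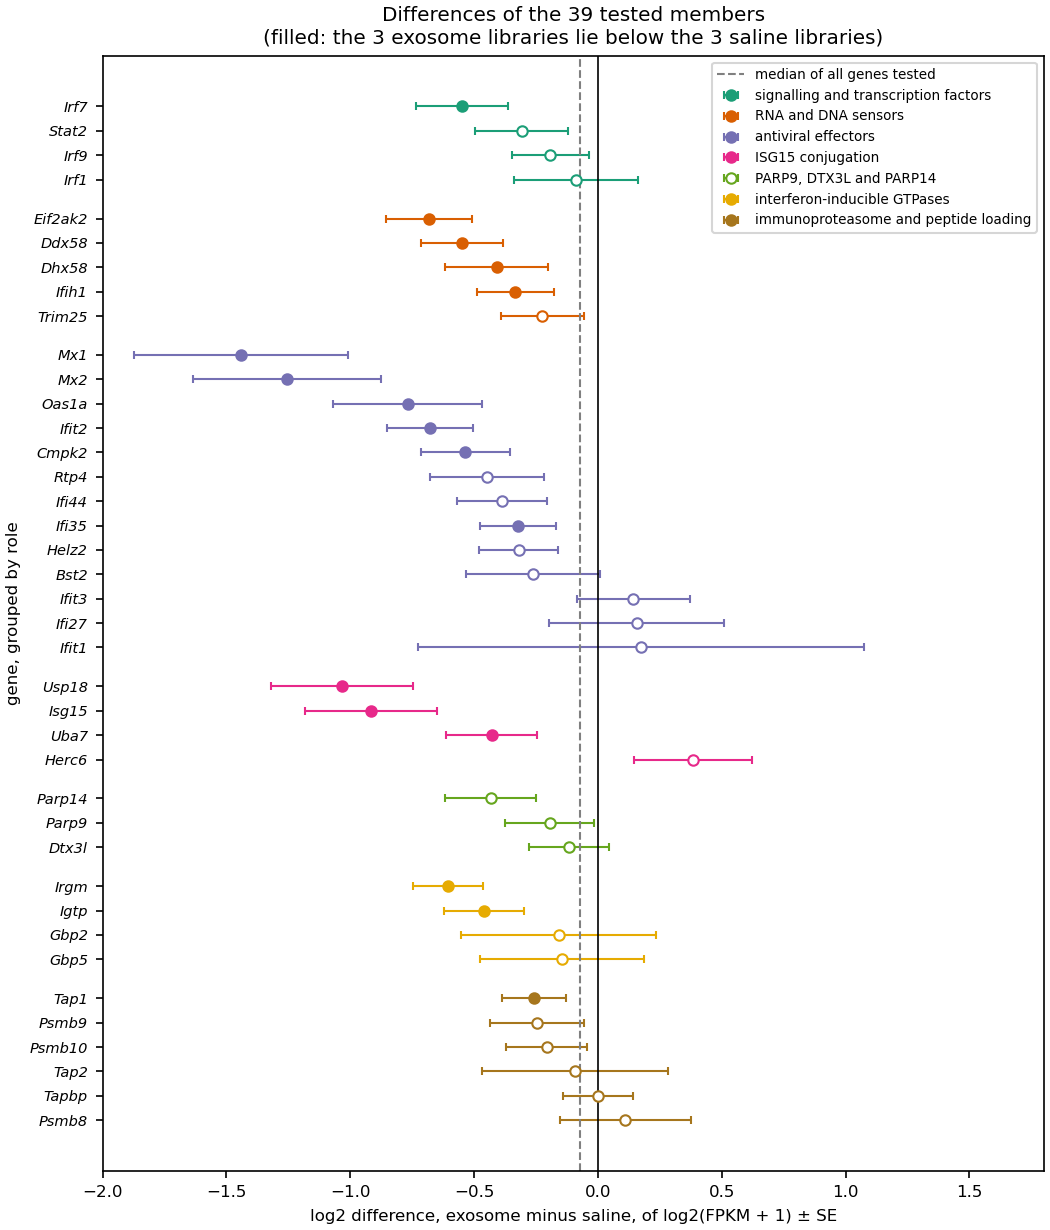
Log2 difference (exosome minus saline, log2(FPKM + 1) scale) with limma's standard error for the 39 tested members, grouped by role; filled points mark the 17 members whose exosome libraries all lay below the saline libraries, and the dashed line is the median of all genes tested. Points spread from -1.44 for Mx1 to 0.38 for Herc6, and 33 lie left of 0.

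Saline 2 stood apart for these genes. It was the highest of the 6 libraries for 22 of the 39 members, against 16.5% of all genes, and the order saline 2, saline 3, saline 1 held in 21 members, against 19.3% of all genes. The mean deviation of the members from their own mean was 0.36 in saline 2, 0.22 in saline 3 and -0.04 in saline 1, and -0.26, -0.18 and -0.10 in exosome 1, 2 and 3. All 3 saline libraries thus lay above all exosome libraries, with saline 1 close to exosome 3. Without saline 2, 35 of 39 members were lower with a median of -0.26, 10 had an unadjusted p under 0.05 in limma (5.59% of all genes were lower by that rule), and 18 lay below the remaining saline libraries (17.1% of all genes). Ifit3 and Herc6 then lay above them in all exosome libraries. Saline 2 also held the most adipocyte transcripts: Adipoq, Plin1, Cidec, Lep and Ucp1 summed to 316.6 FPKM there, to 97.4 and 110.3 in saline 1 and 3, and to 86.9 to 169.2 in the exosome libraries. All 5 of these markers had negative log2 differences (median -0.47), and none was at 0. Without saline 2 the ratio of the saline to the exosome mean was 0.779 for Adipoq, 0.675 for Cidec, 1.06 for Plin1, 1.21 for Lep and 1.70 for Ucp1, so that Adipoq and Cidec turned. Their part in the interferon result was not tested.

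**Figure D3:**
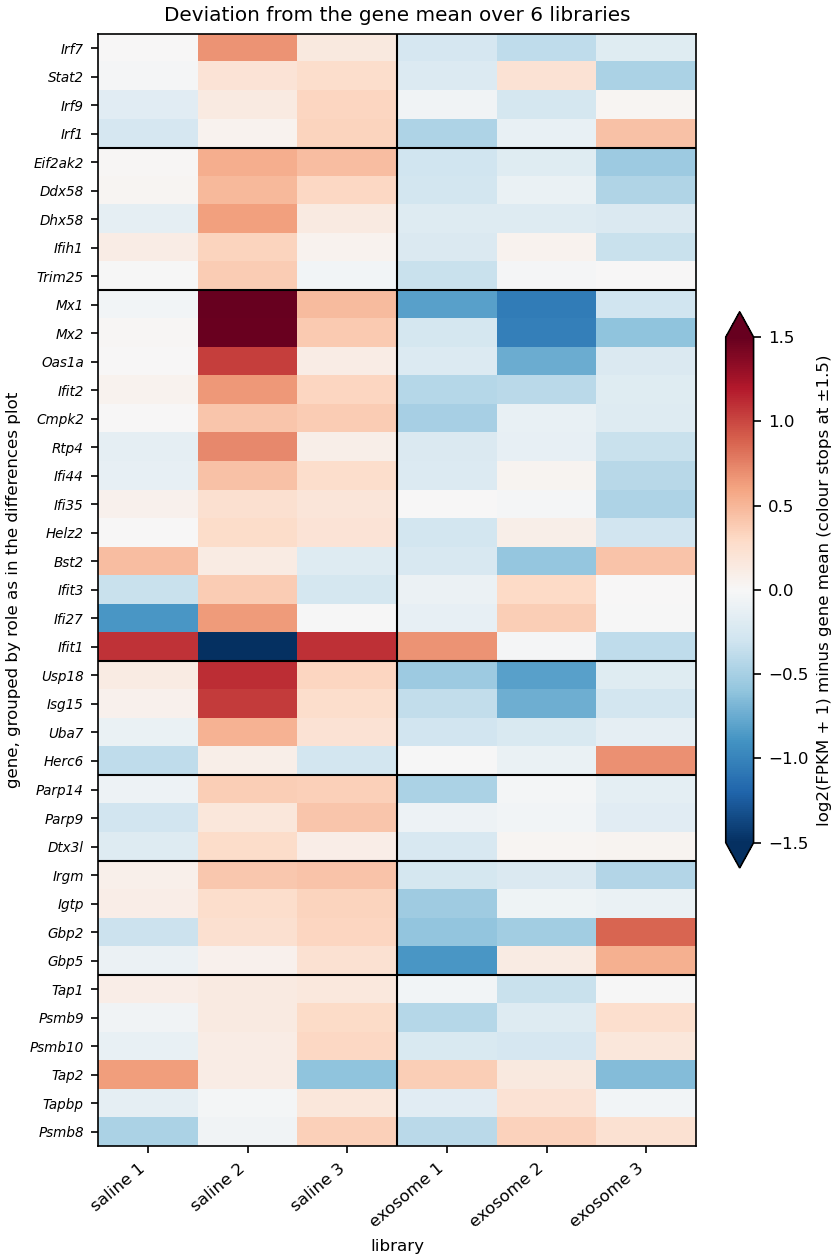
Heat map of the 39 tested members (rows, by role) in the 6 libraries (columns); colour is log2(FPKM + 1) minus the gene's mean over the libraries, and it stops at 1.5 in either direction. Saline 2 is the reddest column for most antiviral effectors and ISG15 genes, with Ifit1, Bst2 and Herc6 as exceptions.

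Among the signalling and transcription factors, Irf7, the factor that amplifies type I interferon production, showed the largest difference. Its FPKM values were 7.998, 13.3 and 8.97 in saline 1 to 3 and 6.53, 5.90 and 6.90 in exosome 1 to 3. The groups did not overlap, the log2 difference was -0.55 ± 0.19 (SE), and limma gave an adjusted p of 0.282. Stat2, a subunit of the ISRE-binding factor, stood at 11.6, 13.7 and 14.3 FPKM with saline and at 10.04, 13.8 and 8.16 with exosomes. Exosome 2 lay within the saline range, and the adjusted p was 0.423. Irf9, the DNA-binding subunit of that factor, had a log2 difference of -0.19. Irf1, the main transcription factor downstream of interferon gamma, had one of -0.09, and exosome 3 held its highest value, 14.3 FPKM.

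The sensors of foreign nucleic acid were lower in all 5 tested cases, with log2 differences from -0.68 to -0.22. Eif2ak2 encodes PKR, a kinase that halts translation on binding double-stranded RNA. It stood at 12.5, 18.5 and 17.4 FPKM with saline and at 9.91, 10.8 and 8.14 with exosomes. The groups were apart, with a ratio of means of 1.68, a log2 difference of -0.68 ± 0.17 (SE) and an adjusted p of 0.255 in limma. Ddx58, which encodes the RNA helicase RIG-I, stood at 5.21, 7.57 and 6.56 FPKM with saline and at 4.04, 4.68 and 3.48 with exosomes. Its groups were apart as well (adjusted p = 0.261). The related helicase genes Dhx58 and Ifih1 were also apart, by less. Dhx58, a regulator of the RIG-I family, stood at 1.48, 3.20 and 2.01 FPKM with saline and at 1.39, 1.39 and 1.35 with exosomes, so saline 1 was close to the treated libraries. Ifih1, which encodes MDA5, stood at 4.33, 5.22 and 4.10 FPKM with saline and at 3.25, 4.10 and 2.91 with exosomes. Saline 3 and exosome 2 nearly coincided for this gene. Trim25, a ubiquitin ligase that activates RIG-I, overlapped (log2 difference -0.22). Zbp1, a sensor of left-handed nucleic acid, lay below the test minimum at 0.349 to 0.450 FPKM with saline and 0.0785 to 0.293 with exosomes, from 6 to 34 reads.

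Of the 13 tested antiviral effectors, 10 had negative differences, Mx1 with the largest, and 3 had positive ones. Mx1, a dynamin-like GTPase that blocks viral replication, stood at 6.97, 26.2 and 10.3 FPKM with saline and at 3.64, 2.97 and 5.65 with exosomes. Saline 2 was far above the rest, yet saline 1 also lay above every exosome library. The group means were 14.5 ± 10.3 and 4.09 ± 1.40 FPKM (SD, n = 3 each), with a log2 difference of -1.44 ± 0.43 (SE, adjusted p = 0.261 in limma). Mx1 was 3.55 times as high with saline, and 2.12 times without saline 2. Its paralog Mx2 stood at 3.45, 11.3 and 4.79 FPKM with saline and at 2.69, 1.17 and 1.90 with exosomes. It showed the same order of saline libraries, with a ratio of 3.39 that was 2.15 without saline 2. Oas1a, which makes the second messenger that activates RNase L, stood at 2.21, 5.55 and 2.45 FPKM with saline and at 1.78, 0.916 and 1.76 with exosomes. Saline 2 again carried much of the gap.

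Ifit2 binds viral RNA and restrains its translation. It stood at 8.50, 13.4 and 10.5 FPKM with saline and at 5.81, 5.96 and 7.08 with exosomes. The 3 treated libraries were close together and below every saline library (log2 difference -0.68 ± 0.17, SE; adjusted p = 0.255 in limma). Cmpk2, a mitochondrial nucleotide kinase, stood at 2.60, 3.81 and 3.66 FPKM with saline and at 1.54, 2.33 and 2.13 with exosomes, also apart. Rsad2 encodes the radical enzyme viperin. It was below the test minimum but its groups were apart too, at 0.991 to 1.495 FPKM with saline and 0.444 to 0.741 with exosomes. Ifi35 stood at 12.9, 14.7 and 14.1 FPKM with saline and at 12.3, 12.2 and 8.62 with exosomes, so that saline 1 and exosome 1 were close. Rtp4, Ifi44 and Helz2 had log2 differences of -0.45, -0.39 and -0.32 with overlapping groups, and Bst2, which tethers budding virus particles, one of -0.26. Oas2 and Oasl stayed between 0.383 and 0.683 FPKM in every library.

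Ifit1, Ifit3 and Ifi27 had positive log2 differences. Ifit1, the cap-binding relative of Ifit2, stood at 11.7, 0.0979 and 11.8 FPKM with saline and at 8.51, 4.90 and 3.57 with exosomes. Saline 2, the library with the most Ifit2, Mx1 and Isg15, thus held only 6 reads of Ifit1, against 284 to 830 in the other 5. The log2 difference was 0.18 ± 0.90 (SE), and without saline 2 it was -1.0 with an adjusted p of 0.461 in limma. Group means of Ifit1 went the other way even with saline 2, at 7.86 FPKM with saline and 5.66 with exosomes. Reads of the Ifit paralogs, as of the Gbp, Oas and Mx families, may be divided among similar copies, which was not tested. Ifit3 stood at 1.20 to 2.59 FPKM with saline and 1.61 to 2.39 with exosomes. Ifi27, a mitochondrial protein gene and the most abundant member per length, stood at 90.7, 261.8 and 166.7 FPKM with saline and at 152.9, 215.8 and 166.8 with exosomes, with the groups fully overlapping.

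**Figure D4:**
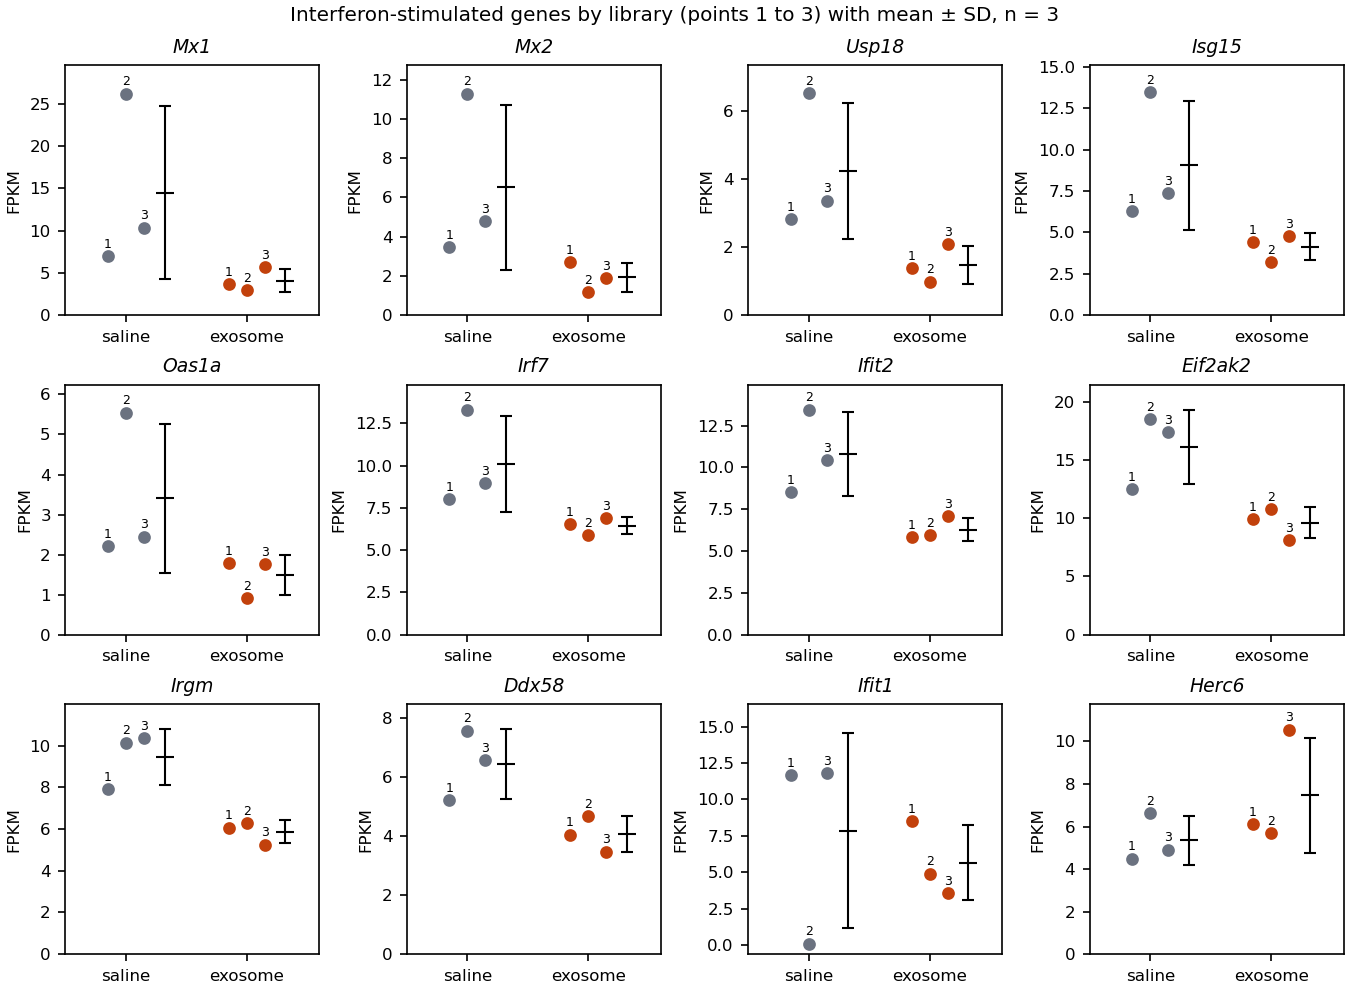
FPKM of 12 members in each library (numbers beside the points are library numbers), with the mean and SD of each group of 3 at the right of its points; every vertical axis starts at or just below 0. Saline 2 is highest in Mx1, Mx2, Usp18, Isg15, Oas1a, Irf7, Ifit2, Eif2ak2 and Ddx58 and lowest in Ifit1. Herc6 is highest in exosome 3.

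ISG15 is a ubiquitin-like protein that interferon induces and attaches to other proteins. Isg15 stood at 6.28, 13.5 and 7.37 FPKM with saline and at 4.41, 3.21 and 4.78 with exosomes, a ratio of means of 2.19 and a log2 difference of -0.91 ± 0.27 (SE). Usp18 encodes the protease that removes ISG15 and also dampens the type I receptor. It stood at 2.83, 6.52 and 3.36 FPKM with saline and at 1.39, 0.985 and 2.09 with exosomes, from 44 to 308 reads. Both had groups apart, with adjusted p of 0.261 for Isg15 and 0.256 for Usp18 in limma. Uba7, the enzyme that activates ISG15 for conjugation, stood at 2.255, 4.004 and 3.06 FPKM with saline and at 1.87, 1.98 and 2.17 with exosomes, with saline 1 just above exosome 3. Herc6, the ligase of the pathway in rodents, went the other way at 4.49, 6.64 and 4.91 FPKM with saline and 6.13, 5.69 and 10.6 with exosomes. Its log2 difference was 0.38 ± 0.24 (SE), the highest of all tested members, with an adjusted p of 0.431.

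PARP9, DTX3L and PARP14 are ADP-ribosylation and ubiquitin enzymes that act in interferon signalling. Parp14 stood at 4.86, 6.95 and 6.90 FPKM with saline and at 3.42, 5.05 and 4.59 with exosomes. Only saline 1 and exosome 2 overlapped, and the log2 difference was -0.43 ± 0.18 (SE; adjusted p = 0.310 in limma). Parp9 stood at 12.7, 17.8 and 21.3 FPKM with saline and at 14.8, 15.3 and 13.9 with exosomes, so the treated libraries lay inside the saline range. Its binding partner Dtx3l had a log2 difference of -0.12.

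The GTPases that interferon gamma induces include the IRG and GBP families. All 4 tested members had negative differences, and the families were not tested against each other. Irgm, which controls other IRG proteins on membranes, stood at 7.93, 10.1 and 10.4 FPKM with saline and at 6.06, 6.29 and 5.25 with exosomes. Its group means were 9.48 ± 1.35 and 5.87 ± 0.550 FPKM (SD, n = 3 each), and the ratio of 1.62 was 1.56 without saline 2, so that library mattered little here. The log2 difference was -0.60 ± 0.14 (SE), and limma gave an adjusted p of 0.255. Igtp stood at 6.52, 7.42 and 7.85 FPKM with saline and at 3.87, 5.72 and 5.55 with exosomes, also apart. The guanylate-binding protein genes had overlapping groups. Gbp2 stood at 9.18 to 14.9 FPKM with saline and at 7.47, 7.87 and 22.5 with exosomes. Gbp5, a driver of inflammasome assembly, stood at 5.11 to 6.605 FPKM with saline and at 2.53, 6.02 and 8.39 with exosomes. Exosome 3 held the highest value of both genes, and without exosome 1 both log2 differences were positive (0.10 and 0.26). Gbp4 was below the test minimum, at 0.550 to 1.88 FPKM with saline and 0.188 to 0.684 with exosomes.

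The genes of the immunoproteasome and of peptide loading showed small differences, with log2 values from -0.26 to 0.11 and a median of -0.15. Tap1, a subunit of the transporter that carries peptides into the endoplasmic reticulum, stood at 8.25, 8.45 and 8.62 FPKM with saline and at 7.36, 5.86 and 7.59 with exosomes. It was the only one of the 6 with groups apart, with an adjusted p of 0.354 in limma. Tap2, the partner subunit, did not follow it, at 2.31, 1.32 and 0.412 FPKM with saline and 1.77, 1.37 and 0.361 with exosomes. Saline 3 and exosome 3 were both low, and the log2 difference was -0.09. Tapbp encodes tapasin, which edits the peptides of class I molecules, and had a log2 difference of 0.00.

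The immunoproteasome subunits were set against the constitutive subunits they replace. Psmb9 stood at 12.04, 13.9 and 15.5 FPKM with saline and at 9.05, 10.9 and 15.1 with exosomes, and its counterpart Psmb6 at 50.3 to 61.6 FPKM over all libraries. The ratio of Psmb9 to Psmb6 was 0.195, 0.276 and 0.267 with saline and 0.149, 0.204 and 0.268 with exosomes. The ratio of Psmb10 to Psmb7 was 0.413, 0.483 and 0.560 with saline and 0.378, 0.388 and 0.575 with exosomes. That of Psmb8 to Psmb5 was 0.157, 0.248 and 0.302 with saline and 0.172, 0.289 and 0.298 with exosomes. The groups overlapped in all 3 ratios, and saline 1 and exosome 1 were the lowest of their groups in each. The constitutive genes Psmb5, Psmb6 and Psmb7 had log2 differences of 0.01, 0.01 and -0.08.

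**Figure D5:**
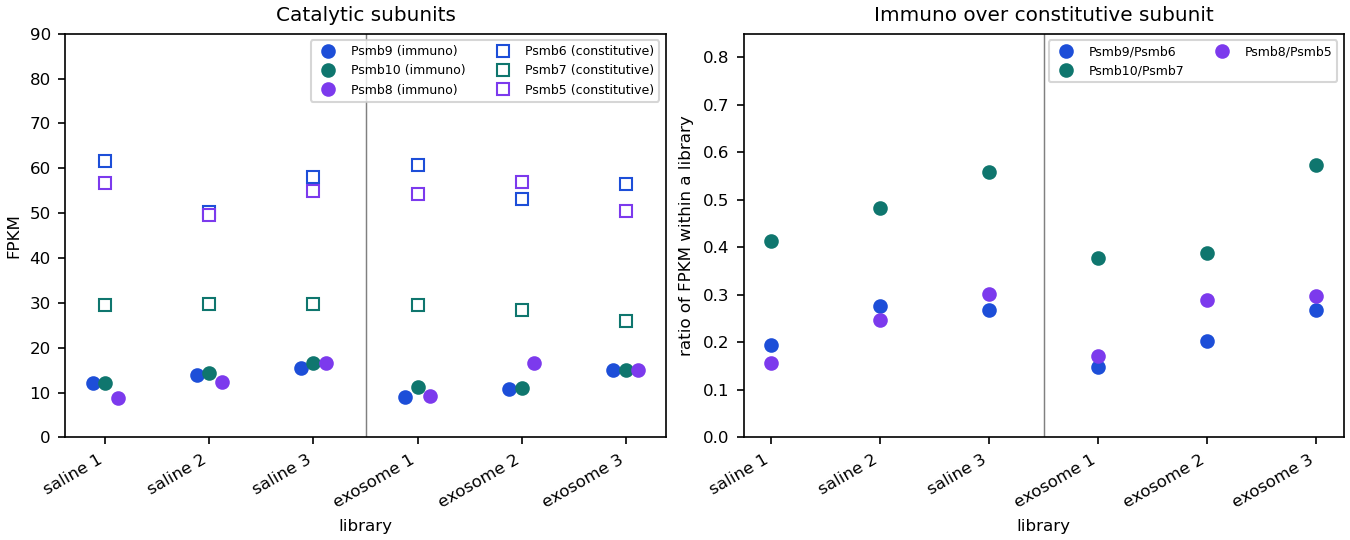
Left, FPKM of the immunoproteasome subunits (filled circles, shifted slightly sideways) and of the constitutive subunits (open squares) in each library; right, the FPKM ratio of each immunoproteasome subunit to its counterpart within a library. The ratios of the 2 groups overlap, and library 1 is the lowest of each group.

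The rest of the pathway was followed with 59 further genes, of which 46 were tested. None passed, 27 were lower and 19 higher, and their median log2 difference of -0.07 equalled that of all genes. Among the 9 ligand genes, 5 were listed at 0 in every library: Ifna1, Ifna2, Ifna5, Ifna11 and Ifng. A count of 0 allows up to 3 reads per library, for counting error only. Ifnb1, Ifna4 and Ifnk were each above 0 in 1 library, at no more than 0.209 FPKM. Ifne stood at 0.257 to 0.434 FPKM with saline and at 0.0554 to 0.224 with exosomes, from 4 to 31 reads. Its groups were apart, below the test minimum. The ligand transcripts were thus at 0 or low in both groups, at no more than 0.434 FPKM.

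The receptor chains and kinases had overlapping groups. Ifnar1 and Ifnar2, the type I receptor chains, had log2 differences of -0.29 and -0.11, and Ifngr1 and Ifngr2, the gamma receptor chains, of 0.10 and -0.10. The kinases Jak1, Jak2 and Tyk2 had values of -0.05, 0.13 and -0.16. Among the 12 tested genes that induce interferon, 8 were lower. Tlr3, the endosomal sensor of double-stranded RNA, stood at 10.8, 11.7 and 18.1 FPKM with saline and at 8.33, 9.96 and 5.39 with exosomes. Tlr7, a sensor of single-stranded RNA found in macrophages and dendritic cells, went the other way, at 0.870 to 1.34 FPKM with saline and 1.67 to 1.995 with exosomes. Both had groups apart, with adjusted p of 0.285 and 0.288 in limma.

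Of the 9 negative regulators, 6 had positive differences. Socs1, a target of interferon that inhibits the JAK kinases, stood at 2.36, 1.75 and 2.58 FPKM with saline and at 0.693, 0.516 and 1.68 with exosomes, from 17 to 103 reads. Its groups were apart with a log2 difference of -0.75 ± 0.24 (SE; adjusted p = 0.272 in limma). Of the 3 phosphatase genes in the list, Ptpn2 and Ptpn11 were apart in the opposite direction, and Ptpn6 had overlapping groups (log2 difference 0.26). Ptpn2 stood at 5.58 to 6.67 FPKM with saline and 7.19 to 9.61 with exosomes, and Ptpn11 at 41.95 to 46.2 and 51.2 to 57.03 FPKM. In class I presentation 5 of 9 tested genes were lower, with differences from -0.19 for Erap1, which trims peptides, to 0.33, and B2m, the invariant class I chain, stood at 508.7 to 553.5 FPKM with saline and 454.3 to 518.7 with exosomes. Among the proteasome activator genes, Psme1 and Psme2, whose products form the interferon-inducible activator, had log2 differences of -0.20 with overlapping groups and -0.25 with groups apart. Psme3, which is not an interferon target, had one of 0.29 with groups apart. The chemokine gene Cxcl10 stood at 1.39, 8.44 and 3.35 FPKM with saline and at 0.436, 0.880 and 1.46 with exosomes, with saline 2 highest and a small overlap of saline 1 with exosome 3 (log2 difference -1.29 ± 0.47, SE; adjusted p = 0.288 in limma). Its ratio of means, 4.74, was 2.56 without saline 2. Cxcl9, the other chemokine gene tested, had a log2 difference of -0.08 with overlapping groups, and Cxcl11 was below the test minimum.

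In whole aorta, fewer cells of a type and less RNA per cell cannot be told apart, so marker genes of the cells that could carry interferon responses were measured beside these results. Macrophage markers stood on the opposite side: 9 of 9 were higher with exosomes, 6 of them with groups apart, and they summed to 106.4 to 126.8 FPKM with saline and 152.0 to 182.5 with exosomes. Of all genes, 9.4% were higher with groups apart, and 60.7% had a negative log2 difference. The general leukocyte markers summed to 15.7 to 18.9 FPKM with saline and 15.97 to 22.2 with exosomes. Of the T and NK cell markers 9 of 10 stayed under 1 FPKM in every library, Cd4 being the other, and all 4 B cell markers did so. Neutrophil markers summed to 4.04, 9.78 and 3.51 FPKM in saline 1 to 3 and to 1.34, 3.74 and 3.38 in exosome 1 to 3. Mpo alone held 7.91 FPKM of the sum in saline 2. The list for plasmacytoid dendritic cells summed to 62.0 to 84.9 and 47.7 to 85.8 FPKM. It includes the member Bst2, which alone held 30.9 to 64.6 FPKM over the libraries. The list's defining marker Siglech had few reads, 4, 4 and 2 in saline 1 to 3 and 0 in each exosome library. Endothelial markers were higher in 5 of 6 cases, at sums of 70.8 to 101.8 and 113.4 to 182.4 FPKM. Red cell genes were lower in 4 of 4 cases, at sums of 362.9 to 1023 and 218.9 to 655.5 FPKM. The part of these cell types in the interferon-stimulated genes was not tested.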

How the data were processed

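RNA-seq of rat aorta was analysed from 3 saline and 3 exosome libraries, grouped by the treatment in the labels. Per the labels' protocols, a SMARTER kit for mRNA-seq was used. The authors deposited FPKM values, 1 column per library. The submitters' processing notes list DESeq2 1.28.1 with no role. No aligner, counter, strand setting or build was given in the sources used here, so how reads of paralogs and overlapping genes were assigned is not known.

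FPKM values were tested as log2(FPKM + 1) with limma 3.58.1 (R 4.3.3, intensity trend, two-sided) in 11742 genes whose mean reached 1 FPKM. Benjamini-Hochberg adjustment covered all of them, with a threshold of 0.05. FPKM steps gave whole reads (within 0.02) for 17393 of 18430 genes above 0 (94.4%) and for all 44 members, hence the depths, the read numbers and an added limma-voom fit. The fit was tested on simulated data. Promoters came from RefSeq (GRCr8).

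The members and lists were chosen with earlier results of these data known, so they are described without list tests. Values in every library are printed for members with an unadjusted p under 0.05 or groups apart, or for the 2 with the smallest p where a role had fewer such members. Pathway genes could be named where their groups were apart or their p was among the 2 smallest of their list, and every ligand, receptor and proteasome gene is. The kinase genes Jak1, Jak2 and Tyk2 of the receptor list, and Cxcl11, were named outside this rule. Ifit1, Ifi27, Herc6, Gbp2, Gbp5, Tap2, Ptpn6 and Irgm2 were singled out after their values were seen. The spacing of the GAS and ISRE pair was likewise taken from the members' own promoters. Alternatives were other pseudocounts, filters, scalings and moderation, library weights, a replicate block and each library left out. A gene of the pathway lists, which the list counts include, is not reported here.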

Additional observations from a re-analysis of the deposited data

How the results depend on the processing

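Across the 18 alternatives, 30 of the 39 tested members kept the sign of their log2 difference, and 31 to 36 members were lower (23 of 28 at a mean FPKM of at least 5, and 37 of 44 with no filter). The members' median stayed negative, between -0.43 with library weights and -0.24 with quantile normalization. It was -0.41 to -0.26 with each library left out. No member passed in any alternative but library weights, where 6 did.

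All genes past the threshold numbered 1, but 2 with quantile normalization, 618 with library weights and 0 to 9 with 1 library left out. Members lower at an unadjusted p under 0.05 numbered 13. They were 8 at a mean FPKM of at least 5, 21 with library weights, 10 to 18 with 1 library left out and 11 to 16 in the other alternatives. Of all genes, 9.24% were lower by this rule in the main fit, 8.76% at a mean FPKM of at least 5 and 23.2% with library weights. The share was 4.31% to 19.1% with 1 library left out and 6.31% to 10.0% in the other alternatives. The 19.1% came without exosome 2, where 16 members were lower by this rule. Members with groups apart numbered 17. They were 10 at a mean FPKM of at least 5, 13 with quantile normalization, 15 with the median of ratios, 16 rescaled to TPM, 19 with no filter and 17 to 24 with 1 library left out. Of all genes, 11.7% lay apart in this direction in the main fit and 8.2% to 10.9% with these other filters and scalings. The share was 14.0% to 33.5% with 1 library left out. It was 24.5% without saline 1, where 24 members were apart, and 33.5% without exosome 2, where 22 were. The stricter filter tests fewer members and no filter tests more. Leaving a library out can only keep or raise the number of genes with groups apart. For the other changes the cause was not tested.

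The sign turned for 9 members. With 1 library left out, the log2 difference ranged from -1.0 to 0.77 for Ifit1, -0.33 to 0.12 for Irf1, -0.24 to 0.52 for Ifi27, -0.64 to 0.10 for Gbp2, -0.45 to 0.26 for Gbp5, -0.10 to 0.34 for Psmb8, -0.42 to 0.21 for Tap2 and -0.11 to 0.09 for Tapbp. With library weights Ifit3 was -0.02, Ifi27 -0.16, Psmb8 -0.23, Tap2 0.20 and Tapbp -0.13, and with limma-voom Tapbp was -0.01.

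With the replicate number as a block, 1 gene and no member passed in limma, 13 members were lower at an unadjusted p under 0.05, and the median stayed at -0.32. Libraries with the same number deviated together little (r of 0.07, 0.10 and -0.17 across genes, which are not independent), and 0 of 3 correlated best with their own number, so the numbers were not taken as a pairing. The count tools edgeR and DESeq2 had been planned for the recovered reads but were not run, because the deposited values are FPKM. Limma-voom was run on the recovered reads in their place. Counting error limits the low members, such as Zbp1 with 6 to 34 reads. The limma-voom fit was added after the data were seen.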
